A study of Mus musculus with 2 samples.

Results

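The genes described here are 10 genes of hepcidin and hepatic iron handling, of 37146 genes in the deposited tables: Hamp, Hamp2, Hfe, Hfe2, Tfrc, Tfr2, Slc40a1, Fth1, Ftl1 and Bmp6. They were selected by gene name, with no threshold on a measured value, and with earlier results of these data known. The file's own gene name matched 9 of them, and Tfr2 was found by its gene ID under its older name, Trfr2. The measurements were RNA-seq of mouse liver, with 1 library from CD-1 mice, an outbred strain, that received phosphate-buffered saline (Control) and 1 library from CD-1 mice that received titanium dioxide nanoparticles (NP). The particles were given by mouth at 50 mg per kg body weight per day, after the suspension had been stirred with ultrasound for 30 min. The labels did not give sex, age, the length of dosing, the time of day or the number of mice behind a library. Since each group had 1 library, differences have no replicate check and could not be tested, and every statement is about these 2 libraries, not about the treatment.

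Hepcidin, the product of Hamp, is a peptide hormone that hepatocytes secrete. It binds ferroportin (Slc40a1), the cellular iron exporter, and causes its degradation, so that less iron enters the plasma from gut, macrophages and liver. Hamp transcription in hepatocytes is driven by BMP ligands that endothelial cells release, through SMAD proteins and the co-receptor hemojuvelin (Hfe2), with input from Hfe and Tfr2, and by IL-6 through STAT3. Inside cells, iron regulatory proteins bind stem-loops called iron-responsive elements (IREs), and this lowers translation of ferritin and ferroportin mRNA and stabilises Tfrc mRNA.

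The promoters of Hamp and its neighbour Hamp2 are shown because the levels of the pair differed more than those of any other related members. The lines give the 250 bases before the annotated start, 5′ to 3′ on the minus strand of chromosome 7, from RefSeq in build GRCm38.p6, at chr7:30944030-30944279 for Hamp and chr7:30924182-30924431 for Hamp2. Capitals mark the BMP-responsive element core GGCGCC and the STAT core TTCNNNGAA, and in Hamp2 the 6 bases that align with the Hamp element.
Hamp: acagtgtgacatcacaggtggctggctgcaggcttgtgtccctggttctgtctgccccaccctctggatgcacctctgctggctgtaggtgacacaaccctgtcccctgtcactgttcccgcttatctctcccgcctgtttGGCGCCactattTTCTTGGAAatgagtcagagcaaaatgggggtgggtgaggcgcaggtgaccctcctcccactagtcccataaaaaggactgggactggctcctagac
Hamp2: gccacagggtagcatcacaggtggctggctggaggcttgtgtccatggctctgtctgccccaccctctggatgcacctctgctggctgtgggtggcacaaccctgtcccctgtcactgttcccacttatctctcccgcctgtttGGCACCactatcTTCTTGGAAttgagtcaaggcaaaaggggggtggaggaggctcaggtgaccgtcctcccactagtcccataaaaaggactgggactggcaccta
The windows aligned over 247 bases with 91.9% identity and 20 substitutions. One of them lay in the element, G145A, with positions counted from 1 at the 5′ end of the Hamp window, so the aligned Hamp2 bases read GGCACC. The STAT core was found in both, beginning 97 bases before the start in Hamp and 94 bases before it in Hamp2, and no match overlapped another. The CRE half-site TGACG was found in neither window. Searched on both strands in the same 250 bases of 27025 genes, GGCGCC was present for 10.8%, TTCNNNGAA for 8.13% and TGACG for 19.8%. Windows were found for 8 of the 10 members, and 1 other, Tfrc, also held GGCGCC. These matches describe letters and not bound sites.

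Stem-loops with the IRE pattern are shown because they divide the members into those with a copy in the 5′ and those with copies in the 3′ untranslated region. The pattern was a C, 5 bases, the loop CAGTG with A, C or T after it, and 5 bases that pair with the first 5. It was found in Fth1, Ftl1 and Slc40a1 in the 5′ region and at 4 places in Tfrc in the 3′ region, in GENCODE M21 transcripts. Capitals mark the C and the loop in the 30 bases printed.
Fth1: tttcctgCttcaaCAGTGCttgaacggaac
Ftl1: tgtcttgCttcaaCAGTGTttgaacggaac
Slc40a1: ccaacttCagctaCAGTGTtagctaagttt
Tfrc site 1: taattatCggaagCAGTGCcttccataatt
Tfrc site 2: acattatCgggagCAGTGTcttccataatg
Tfrc site 3: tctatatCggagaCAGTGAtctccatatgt
Tfrc site 4: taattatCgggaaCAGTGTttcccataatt
Of 21901 genes with a coding transcript, 0.105% held the pattern in a 5′ and 0.457% in a 3′ untranslated region.

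Levels are in FPKM (fragments counted per length of a row and per depth of the library), summed over all rows of a gene. They are given with the 95% interval of the estimate within a library, which holds no spread between animals. Their order was the same in both libraries. Hamp was the 33rd most abundant of 10530 genes kept in Control and the 29th in NP. Below Hamp the order in Control was Ftl1, Fth1, Tfr2, Slc40a1, Hfe2, Hfe, Hamp2 and Tfrc. Neighbours with overlapping intervals were Hfe and Hamp2 in Control, Hfe2 and Hfe in NP, and Hamp2 and Tfrc in both.

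**Figure D1:**
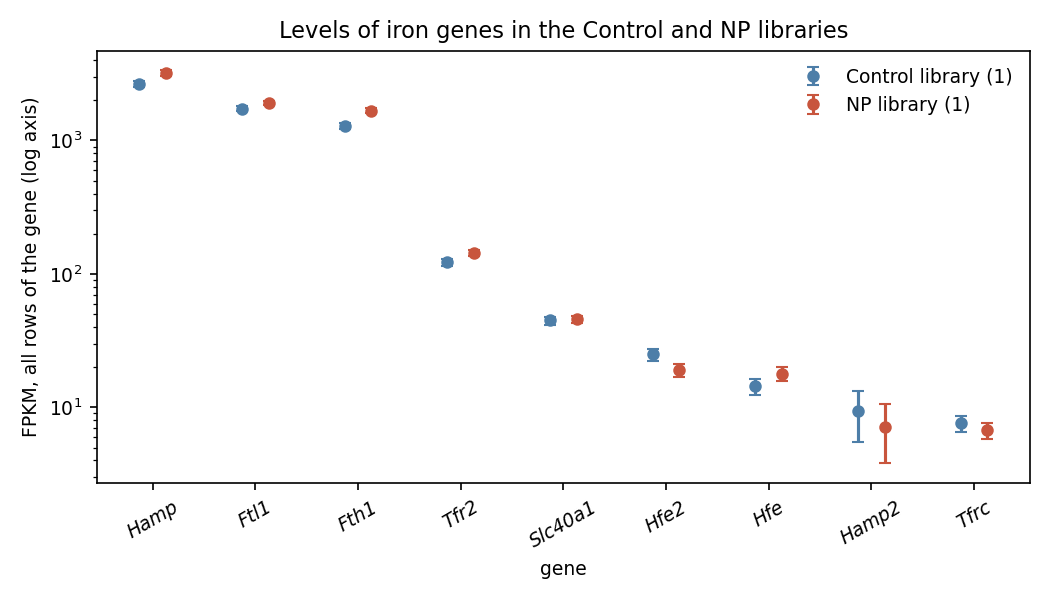
FPKM of the 9 members above 0 (log axis), with 1 point per library and bars for the 95% interval of the estimate. Hamp was highest at 2663 and 3202 FPKM and Tfrc lowest at 7.57 and 6.73 FPKM, and the bars of Hamp, Fth1, Ftl1, Tfr2 and Hfe2 do not overlap between libraries.

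None of the 9 members that passed the filter on low values (a mean of at least 1 FPKM, with OK status in every row) lay 1.5-fold apart. Of the 10530 genes kept, 8.93% did, and among 9 genes a count of 0 is near that share. Counts at 1.5-fold use log2((NP + 1)/(Control + 1)), where the added 1 makes the differences of low genes look smaller. On this scale the members ran from -0.38 for Hfe2 to 0.37 for Fth1, with a median of 0.15, against a median of -0.03 over all genes kept. The ratio was above 0 for 6 members and below 0 for 3. The libraries' intervals were separate for 5 of the 9, with NP above Control for Hamp, Tfr2, Fth1 and Ftl1 and below it for Hfe2. Of all genes kept, 7.72% had NP above and 9.58% had NP below without overlap. Separate intervals either way were found for 17.3% of all genes kept, for 40.2% of those whose mean reached 100 FPKM and for 67.5% of those whose mean reached 1000 FPKM. Intervals of abundant genes are narrow, and Hamp, Fth1 and Ftl1 belong to the 80 genes of the last class.

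**Figure D2:**
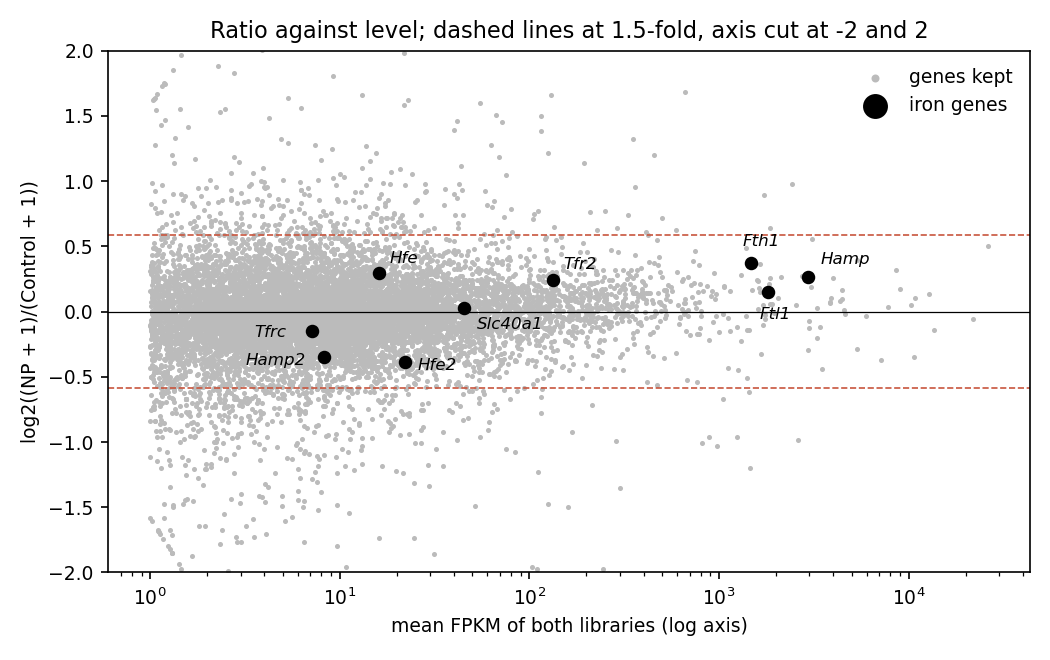
Ratio of NP to Control on the log2(FPKM + 1) scale against the mean FPKM (log axis) for the 10530 genes kept in grey and the 9 members in black; 97 genes lie beyond the vertical axis. All 9 members lie between the dashed lines at 1.5-fold, from -0.38 for Hfe2 to 0.37 for Fth1.

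Hepcidin mRNA was slightly higher in NP. Hamp (ENSMUSG00000050440.7, chromosome 7, 31727390 to 31729036 in build mm9) had 2663 FPKM (2535 to 2792) in Control and 3202 FPKM (3052 to 3353) in NP. The intervals did not overlap, and the FPKM ratio was 1.20. Its 1 transcript row, of 392 nt, was at 2614 and 3150 FPKM, with read coverage of 5950 and 9288. The row that spans the whole gene, which can also take intronic reads, was at 49.7 (45.4 to 54.1) and 52.7 (48.5 to 57.0) FPKM, with overlapping intervals.

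Hamp2, the hepcidin paralog of the mouse, was at a low level in both libraries. Hamp2, on chromosome 7 between 31707391 and 31709200, had 9.37 FPKM (5.46 to 13.3) in Control and 7.17 FPKM (3.80 to 10.5) in NP, with overlapping intervals. Hamp stood 284 times above Hamp2 in Control and 447 times in NP. The transcripts of the pair are 93.3% identical over 417 aligned bases, so reads of one could be assigned to the other and the level of Hamp2 is uncertain. The sum of both was 2673 and 3209 FPKM.

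Tfr2 and Hfe, membrane proteins that sense iron upstream of hepcidin, both had higher values in NP, with separate intervals for Tfr2 and overlapping ones for Hfe. Tfr2, the hepatocyte sensor of iron-loaded transferrin (chromosome 5, 138011079 to 138028709), had 122 FPKM (115 to 128) in Control and 145 FPKM (137 to 152) in NP, a ratio of 1.19. Hfe, an MHC class I-like protein that partners with the transferrin receptors (chromosome 13, 23793903 to 23802723), had 14.4 FPKM (12.4 to 16.4) and 17.9 FPKM (15.7 to 20.0). Of the 4 transcript rows of Hfe only the one of 1766 nt was above 0, at 13.6 and 17.2 FPKM.

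Hfe2, which encodes hemojuvelin, was lower in NP. Hfe2, on chromosome 3 between 96329108 and 96333139, had 25.0 FPKM (22.4 to 27.6) in Control and 18.9 FPKM (16.8 to 21.0) in NP. The difference lay in the transcript row of 2021 nt, at 18.6 (16.2 to 21.0) and 12.9 (11.0 to 14.8) FPKM, 1.45-fold lower. The row that spans the gene had 6.34 and 6.04 FPKM, again with overlap, and it held 25.4% of the gene's FPKM in Control and 31.9% in NP. It was the member with the largest share of its FPKM in that row.

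The ligand Bmp6, which endothelial cells release when liver iron is high, was listed at 0 in both libraries. Both of its transcript rows were at 0 with upper limits of 0.0649 and 0.0921 FPKM in Control and 0.0573 and 0.0815 FPKM in NP. Bmp6 lies on chromosome 13 between 38436995 and 38592183 and shares 236 bases with Txndc5, a gene at 78.2 and 88.9 FPKM. A 0 in these tables can be a failed estimate, since Uros, an enzyme of heme synthesis, was also listed at 0 in both, so no level of Bmp6 is read from it. Bmp2, the other endothelial ligand that drives hepcidin, was at 3.87 FPKM (3.15 to 4.59) and 3.21 FPKM (2.60 to 3.83), with overlapping intervals.

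Among 20 measured genes of the BMP and SMAD pathway, 1 was at least 1.5-fold higher in NP and 0 were lower, where 3.60% of all genes kept were higher and 5.33% lower. That gene was Id1, a direct target of BMP signalling, at 13.5 FPKM (10.7 to 16.2) in Control and 21.6 FPKM (18.2 to 25.0) in NP, a ratio of 1.61. Id3, a related target, was at 33.5 (29.7 to 37.4) and 46.8 (42.4 to 51.2) FPKM. Of the 20 genes, 3 were above Control without overlap: Id1, Id3 and Id2, the last named after its values were seen. Id2 was at 125 (116 to 133) and 144 (135 to 153) FPKM. Below Control without overlap were 2 genes, Smad9 among them. These classes held 7.72% and 9.58% of all genes kept. The inhibitory SMADs, themselves BMP targets, differed from each other in direction, with Smad7 at 3.07 and 4.16 FPKM and Smad6 at 2.46 and 1.61 FPKM, each with overlapping intervals. Smad9, a receptor-activated SMAD, was at 5.45 (4.75 to 6.16) and 3.33 (2.82 to 3.84) FPKM, 1.64-fold lower by plain FPKM and within 1.5-fold on the log2(FPKM + 1) scale. Tmprss6, the hepatocyte protease that cleaves hemojuvelin and lowers hepcidin, was at 142 and 141 FPKM. Bmpr2, a BMP receptor, had 1.93 FPKM in Control and 1.39 FPKM in NP, and its intervals overlapped. The list median was -0.02, against -0.03 over all genes kept, and 8 ratios were above 0 and 12 below.

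All 9 measured genes of the IL-6 and STAT3 input lay within 1.5-fold, where 8.93% of all genes kept did not. In a list of 9 genes, a count of 0 is near that share. Stat3, a transcription factor activated by IL-6, was at 19.2 FPKM (17.6 to 20.7) in Control and 27.4 FPKM (25.5 to 29.3) in NP, a ratio of 1.43. Its span overlaps Stat5a over 72 bases, for which 6.14 FPKM was given in Control and 0 in NP. Socs3, a feedback inhibitor and STAT3 target, was at 5.81 FPKM in both libraries. Il6ra, the IL-6 receptor chain, had 13.4 and 16.2 FPKM, and its intervals overlapped. Above Control without overlap was 1 gene of the 9, Stat3, and below it were 3, against 7.72% and 9.58% of all genes kept. The 3 included Cebpa, a transcription factor needed for Hamp expression, at 153 (148 to 158) and 118 (114 to 122) FPKM. They also included Jak2, a receptor-associated kinase, at 3.76 (3.17 to 4.34) and 2.68 (2.21 to 3.15) FPKM. The other was Il6st, the signalling chain of the IL-6 receptor, named after its values were seen, with 22.3 (20.7 to 24.0) and 19.1 (17.7 to 20.5) FPKM. Il22ra1, an IL-22 receptor chain, had 3.19 and 2.15 FPKM, and its intervals overlapped too. The list median was -0.19, with 7 of 9 ratios below 0, while 45.6% of all genes kept had ratios above 0.

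The transferrin receptor Tfrc, which takes up iron-loaded transferrin in most cells, differed between its transcript rows. Tfrc, on chromosome 16 between 32609006 and 32632880, had 7.57 FPKM (6.58 to 8.56) in Control and 6.73 FPKM (5.82 to 7.63) in NP as a sum, with overlapping intervals. Its coding row of 4890 nt was at 5.42 (4.65 to 6.19) and 3.93 (3.31 to 4.55) FPKM, 1.38-fold lower in NP without overlap. The row of 3527 nt, a retained-intron transcript in GENCODE M21, was at 1.93 (1.31 to 2.55) and 2.60 (1.94 to 3.26) FPKM, with overlap. The coding row thus held 71.6% of the gene's FPKM in Control and 58.4% in NP. The row of 3527 nt, from 32624528 to 32632876, lies within the span of the coding row. Reads could be assigned to either, so the split between these rows is uncertain. Tfr2 stood 16.1 times above Tfrc in Control and 21.5 times in NP.

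Ferroportin mRNA was at the same level in both libraries within its interval. Slc40a1, on chromosome 1 between 45964915 and 45982439, had 44.8 FPKM (41.7 to 47.8) in Control and 45.7 FPKM (42.7 to 48.7) in NP, all of it in 1 transcript row of 3380 nt. Macrophages and hepatocytes both express this exporter, and the part of macrophages in its level was not tested. Of 12 Kupffer cell and macrophage markers found, 8 passed the filter and all 8 had ratios below 0, 2 of them without overlap. Of all genes kept, 45.6% had ratios above 0. The summed level over the 12 markers was 58.8 FPKM in Control and 36.8 in NP, and none was listed at 0 in both. A large part of this difference lay in Clec4f, at 18.4 FPKM in Control and 7.63 FPKM in NP. It was the only 1 of the 8 at least 1.5-fold lower, against 5.33% of all genes kept, and C1qb was at only -0.05 in log2.

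**Figure D3:**
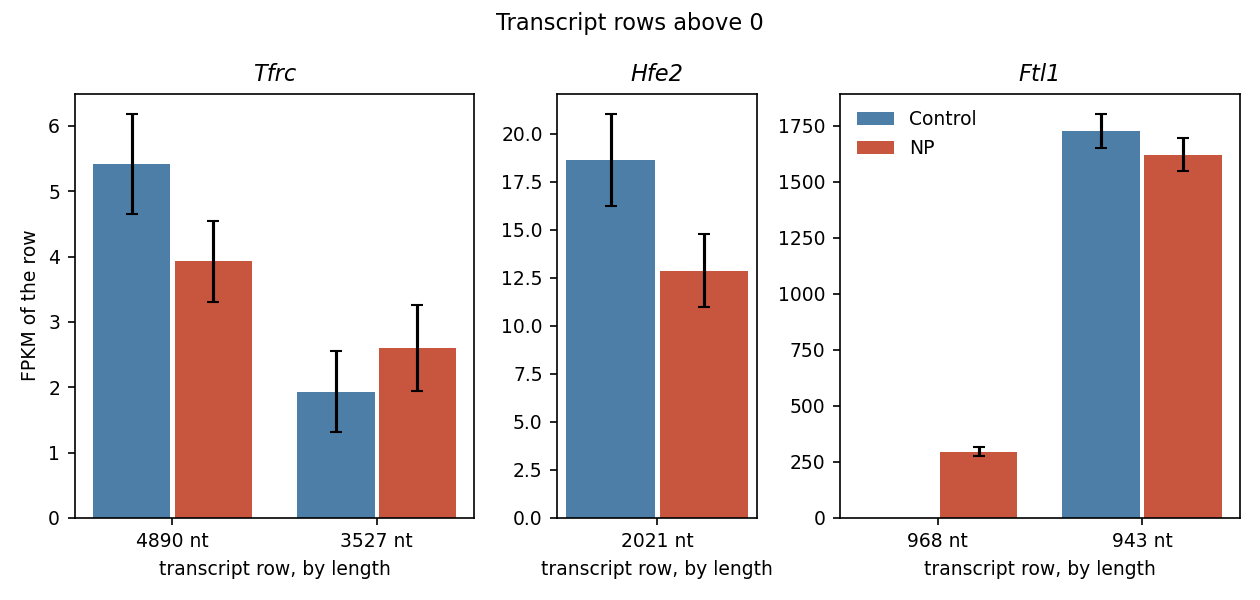
FPKM of the transcript rows above 0 for Tfrc, Hfe2 and Ftl1, with 1 bar per library and lines for the 95% interval, each panel on its own axis from 0. The coding row of Tfrc (4890 nt) and the row of Hfe2 are lower in NP, and Ftl1 has a row of 968 nt that is above 0 in NP alone, at 296 FPKM.

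Both ferritin subunits, which form the shell that stores iron, were abundant and somewhat higher in NP. Fth1, the heavy chain with ferroxidase activity (chromosome 19, 10057193 to 10059582), had 1290 FPKM (1230 to 1350) in Control and 1671 FPKM (1596 to 1747) in NP. Its ratio of 1.30 was the highest of the 9 members, and the intervals did not overlap. Among the 80 genes kept with at least 1000 FPKM, 38.8% had an NP interval above that of Control. One near copy, Gm6977, 90.5% identical over 524 bases, was at 43.6 and 36.6 FPKM.

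The light chain Ftl1 (chromosome 7, 52713314 to 52715254) had 1727 FPKM (1650 to 1804) in Control and 1916 FPKM (1841 to 1992) in NP, a ratio of 1.11. In Control all of it lay in the row of 943 nt. In NP that row was at 1621 FPKM (1548 to 1694) and held 84.6%, and the coding row of 968 nt, listed at 0 in Control, was at 296 FPKM (277 to 315). The 2 rows differ by 25 nt in length, and by the 943 nt row alone Ftl1 was lower in NP with overlapping intervals.

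Ferritin light chain sequence was also counted under copies elsewhere in the genome. Of 9 genes at least 90% identical to Ftl1 over at least 30% of its longest coding transcript, 6 were found in the tables. Gm10116, called Ftl1-ps1 in GENCODE M21 and 99.6% identical over 910 bases, was at 1082 FPKM (1031 to 1133) and 1207 FPKM (1151 to 1262). Ftl2 was at 507 (476 to 539) and 542 (509 to 574) FPKM. Gm15590, 99.1% identical over 552 bases, was at 322 (303 to 341) and 238 (223 to 253) FPKM, lower in NP. The remaining 3 were below 1 FPKM in both libraries. Ftl1 itself held 47.5% of the family's FPKM in Control and 49.1% in NP. Reads of such copies can be exchanged, so the split between them is uncertain. The sum of Ftl1 and its copies was 3639 FPKM in Control and 3903 FPKM in NP, 1.07 times as high.

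The other genes of iron metabolism were described by lists of 109 names, of which 97 passed the filter. Of these 97, 4 were at least 1.5-fold higher in NP and 1 lower, 5.15% in all against 8.93% of all genes kept, and 20.6% had separate intervals against 17.3%. By plain FPKM the split was 4 higher and 4 lower, and it was 4 higher and 0 lower when NP was scaled to a median log2 ratio of 0. The median ratio was 0.00.

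Iron uptake and transport held 3 of the 4 higher genes among its 14 measured members, with a list median of 0.19, 11 ratios above 0 and 0 genes lower. Of all genes kept, 3.60% were higher, 5.33% were lower and 45.6% had a ratio above 0. Without overlap, NP lay above Control for 7 of the 14 and below it for 0, against 7.72% and 9.58% of all genes kept. Hp, which encodes haptoglobin, the plasma carrier of free hemoglobin, was at 1631 FPKM (1559 to 1702) in Control and 3210 FPKM (3074 to 3346) in NP. Hpx, which encodes hemopexin, the carrier of free heme, was at 1459 (1395 to 1523) and 2271 (2174 to 2368) FPKM. Lcn2, which binds bacterial siderophores, was at 1.31 (0.432 to 2.21) and 4.23 (2.74 to 5.73) FPKM. These 3 genes are also known acute phase genes. Trf, which encodes transferrin, the plasma iron carrier, was 1.31 times as high in NP, at 4602 (4463 to 4740) and 6048 (5867 to 6229) FPKM. Slc39a14, the importer of iron not bound to transferrin, was at 42.4 (39.9 to 45.0) and 49.5 (46.8 to 52.2) FPKM, and Cp, the ferroxidase ceruloplasmin, at 331 (319 to 343) and 376 (363 to 389) FPKM. All 3 had NP above Control without overlap. Slc11a2, the divalent metal transporter DMT1, was at 10.3 and 11.3 FPKM, and the lowest ratios were those of the ferrireductase Steap3, at 4.91 and 4.07 FPKM, the heme and folate carrier Slc46a1, at 20.3 and 18.3 FPKM, and the receptor Lrp1, at 46.8 and 45.7 FPKM. These 4 had overlapping intervals.

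All 9 measured genes of storage and the iron regulatory proteins lay within 1.5-fold and had overlapping intervals, with a median of -0.05. Of all genes kept, 8.93% lay past 1.5-fold and 17.3% had separate intervals. In a list of 9 genes, counts of 0 are near these shares. Aco1 and Ireb2, which encode the proteins that bind IREs, had 48.6 and 47.0 FPKM (Aco1) and 18.8 and 16.5 FPKM (Ireb2). Ncoa4, the receptor that takes ferritin to the lysosome, was at 34.6 and 30.3 FPKM. The iron chaperone Pcbp1 was at 100.4 and 101.7 FPKM, and the hypoxia factors Hif1a and Epas1 at 9.12 and 7.49 FPKM and at 22.9 and 23.0 FPKM.

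Heme synthesis and breakdown had 0 of 21 measured genes past 1.5-fold, against 8.93% of all genes kept, with a median of 0.02. In a list of 21 genes, a count of 0 is not far from that share. Without overlap, NP lay above Control for 2 of the 21 and below it for 1, against 7.72% and 9.58% of all genes kept. Alas1, the rate-limiting enzyme of hepatic heme synthesis, was at 97.0 FPKM (91.1 to 103) in Control and 143 FPKM (136 to 150) in NP, a ratio of 1.48. Slc48a1, a heme transporter, was at 28.9 (26.3 to 31.4) and 35.1 (32.3 to 37.8) FPKM, and Blvrb, a biliverdin reductase, was lower in NP at 187 (172 to 203) and 137 (127 to 148) FPKM. Hmox1, which breaks heme down, was at 8.41 and 9.59 FPKM, and Fech, which inserts iron into heme, at 50.1 and 46.5 FPKM. The synthesis enzyme Ppox, at 10.2 and 8.42 FPKM, and the heme exporter Flvcr1, listed as Mfsd7b at 1.56 and 1.03 FPKM, overlapped as did Hmox1 and Fech.

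Iron-sulfur cluster assembly had 1 of 24 measured genes past 1.5-fold, against 8.93% of all genes kept, with a median of 0.03. In a list of 24 genes, a count of 1 is not far from that share. The gene past 1.5-fold was also the only 1 of the 24 with separate intervals, against 17.3% of all genes kept. Mms19, which delivers clusters to DNA repair enzymes, was at 9.30 FPKM (8.01 to 10.6) in Control and 5.81 FPKM (4.98 to 6.65) in NP. Its log2 ratio of -0.60 lay just past the line, and it was within 1.5-fold when NP was scaled to a median log2 ratio of 0 or to the upper quartile. Its span overlaps Zdhhc16 over 3010 bases, a gene at 10.3 and 10.8 FPKM. The others named by the same rule overlapped between libraries. These were Nubpl at 2.50 and 1.79 FPKM, Ciao1 at 23.3 and 18.4, Hscb at 2.14 and 2.52, Nubp2 at 17.0 and 19.4 and the ferredoxin Fdx1 at 48.4 and 59.7 FPKM.

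**Figure D4:**
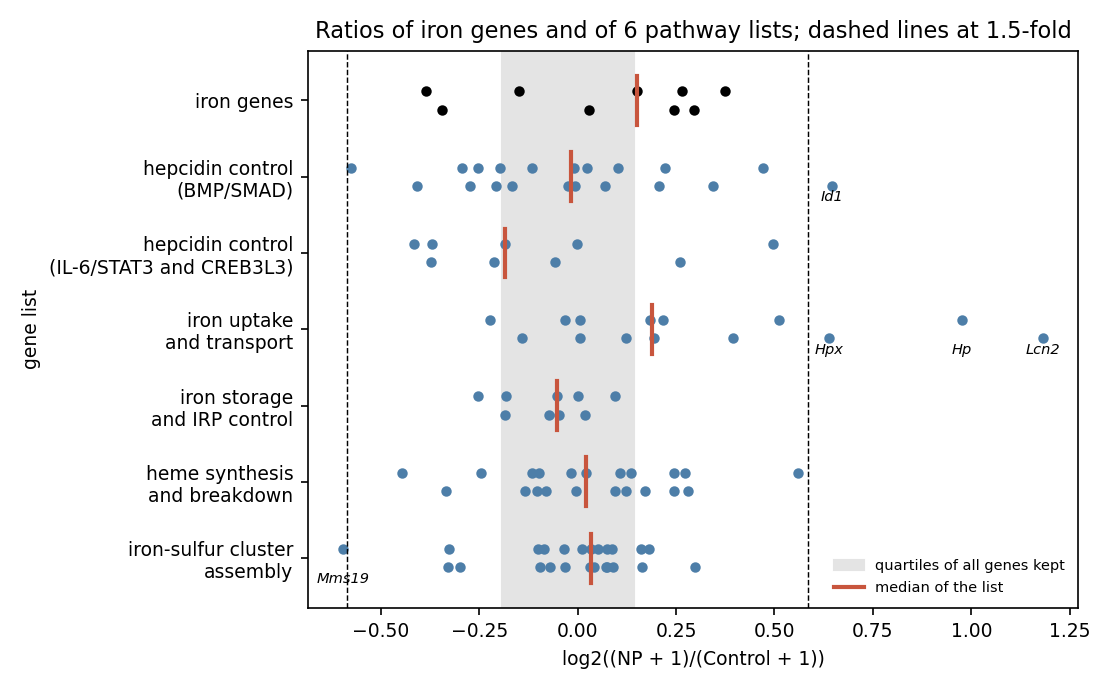
Ratio of NP to Control on the log2(FPKM + 1) scale for the 9 members and the measured genes of 6 lists, with 1 point per gene, red bars for list medians, dashed lines at 1.5-fold and a grey band at the quartiles of all genes kept, -0.19 to 0.14. Past the lines lie Id1, Hpx, Hp and Lcn2 on the higher side and Mms19 on the lower, the last only without scaling to the median or upper quartile.

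Cell type markers moved with these values, and their part in them was not tested. All 7 hepatocyte markers that passed the filter had ratios above 0 (median 0.27), 4 of them without overlap, and Serpina1a and Cps1 were at only 0.01 and 0.04. Ratios were above 0 for 45.6% of all genes kept and for 59.6% of those whose mean reached 100 FPKM. Alb was at 21660 and 30741 FPKM, and its ratio, 0.51 in log2, was larger than that of Hamp at 0.27. The other hepatocyte marker, Apob, was left out because some of its rows had failed status, and it had 1166 (274 to 2057) and 1095 (256 to 1934) FPKM. All 10 sinusoidal endothelial markers, of the cells that make Bmp2 and Bmp6, had ratios below 0, with a median of -0.39. Of these 10, 4 were lower without overlap, Stab1 and Pecam1 were at only -0.04, and the summed levels were 132 and 101 FPKM. Of 9 erythroid markers, cells rich in Tfrc, 5 passed the filter and 4 had ratios below 0, with summed levels of 888 and 769 FPKM. In whole liver, fewer cells of a type and less RNA per cell cannot be told apart. NP was also the more deeply covered library, at 2.93 units of read coverage per FPKM against 2.29.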

How the data were processed

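RNA-seq of CD-1 mouse liver was analysed, 1 library per group. The deposited values were FPKM and read coverage, a signal not scaled to library size, per the file headers, which are those of Cufflinks isoform tables. The submitters' processing notes list TopHat2 2.1.0, Cufflinks 2.2.1.0 and build mm9, without settings. FPKM was summed over all rows of a gene ID, with interval half-widths combined in quadrature over rows above 0, which leaves out covariance between rows. Start positions count from 1. The filter on low values asked for a mean of 1 FPKM or more. It also asked for OK status throughout, 1 transcript or more of 300 nt upwards and no small RNA name, which left 10530 genes. A pseudocount of 1 and a size rule of 1.5-fold were used, and no test was possible. The total number of fragments is unknown.

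All members were named, with the 3 highest and 3 lowest ratios of each list and 12 fixed genes, and 1 gene under this rule is not reported here. Genes overlapping or copying a member, and markers named beside a member, were added. Members and lists were chosen with earlier results of these data known. Near copies were found with BLAST 2.17.0 among GENCODE M21 transcripts and promoters aligned with Biopython 1.88. Proteins were not used here. Python 3.11.15, pandas 2.3.3 and numpy 2.4.6 were used.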

Additional observations from a re-analysis of the deposited data

How the results depend on the processing

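No member lay 1.5-fold apart under any of the 11 alternatives run. These covered the pseudocount, the filter, 4 scalings of NP, the rows used and a 2-fold rule. The 2-fold rule is stricter than 1.5-fold, so it could not raise the count of members. Neither could the changed filters, which alter no ratio and at most add Bmp6, listed at 0. Separate intervals were found for 5 members in the main setting and for 4 or 5 under 6 alternatives. Ftl1 overlapped with the top transcript row, where its log2 ratio was -0.09 and Tfrc became separate at -0.38. Ftl1 also overlapped when NP was scaled to genes of at least 100 FPKM, an alternative chosen after seeing the data that also put Slc40a1 at -0.01. Of 72 log2 ratios of single members, 70 moved by less than an upper half-width of the member's level on the log2(FPKM + 1) scale. The larger half-width of Control and NP was used, and it is not an interval of the ratio. The list genes past 1.5-fold numbered 8 by plain FPKM (4 higher and 4 lower), 10 by the top transcript row and 1 at 2-fold, against 5. The 1 lower gene, Mms19, was no longer past 1.5-fold with NP scaled to the median ratio or the upper quartile, where 0 were lower. Over all genes, 464 passed when the filter was 5 FPKM and 318 at 2-fold, against 940. Fewer genes enter the 5 FPKM filter, and the 2-fold rule is a stricter cut on the same genes, so both counts are lower by design. The cause of the other changes was not tested. No paired analysis was possible because each group has 1 library, and no library could be left out. The part of depth in the values of low members was not tested.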
